A study of Homo sapiens with 12 samples.

Results

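The response of U373, a human glioblastoma cell line, to the arginine-degrading enzyme BCT-100 was described across all genes. BCT-100 is a pegylated recombinant human arginase that breaks extracellular arginine down to ornithine and urea. For the comparison, 3 libraries came from U373 cultures labelled 1 U/ml BCT-100 and 3 from U373 cultures labelled PBS, the vehicle, all taken at 72 h. Both groups carry the genotype label wild-type and were grown in high-glucose DMEM with 10% fetal bovine serum and antibiotics. The same design in U87, another glioblastoma line, gave 6 further libraries, which are used here only to show where U373 differed. A gene entered the comparison when its value was 10 or more in at least 3 of the 6 U373 libraries, which kept 12666 of the 19824 gene entries of the table. Each group is a single established line in culture, and stocks named U373 have often been found to be another glioblastoma line, U251; the source of the stock is not given in the sources used here. Nothing in the labels tells separate cultures from repeat libraries of 1 culture, so each p-value weighs a change against the spread of these libraries alone.

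Arginine is taken up by cationic amino acid transporters and is used for protein, nitric oxide, creatine and, through ornithine, polyamines. Cells can remake it from citrulline with argininosuccinate synthase and lyase. When an amino acid runs short, uncharged transfer RNA activates the kinase GCN2, which phosphorylates the initiation factor eIF2. General translation then slows while the transcription factor ATF4 is made, a program known as the integrated stress response.

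Library depth in U373 ran from 18.89 to 24.55 M reads (M, 1e6), recovered from the spacing of the deposited values. The values are reads divided by 1 factor per library and are called scaled reads below. In a principal component analysis of the 6 libraries, the first component separated the treatments and held 85.6% of the variance, and the second held 4.3%. One PBS library stood apart in 1 group of genes. In PBS replicate 1, 15 genes with a group mean of at least 100 scaled reads were at least 2-fold above both other PBS libraries, and 11 of the 15 belonged to a list of interferon-response genes. The other 5 libraries had between 0 and 2 such genes. Interferon results are therefore given with and without that library. In the PBS libraries the astrocyte filament gene GFAP lay at 51317, 51277 and 54054 scaled reads and the intermediate filament gene VIM at 171301, 163934 and 165376. Of 20 astrocyte and neural stem markers, 15 passed the filter. Among those below it, the water channel AQP4 had means of 0.614 with PBS and 0.707 with BCT-100. ALDH1L1, also below it, was listed at 0 in both groups. Of 13 leukocyte and microglial markers, 11 were below the filter, and AIF1, CD74, CD3E and TYROBP were listed at 0 in both groups.

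BCT-100 changed most of the measured U373 transcriptome. At an adjusted p below 0.05 (limma on log2(value + 1), Benjamini-Hochberg over all 12666 genes), 4871 genes were higher, 38.5% of those tested, and 4906 were lower, 38.7%. A change shown to exceed 1.5-fold was called in 1537 higher genes (12.1%) and 1721 lower genes (13.6%). With this many genes moving, a gene list is of interest for the share and size of its changes, not for the presence of calls. A list whose shares of higher and lower genes lie near 38.5% and 38.7% does not stand out from all genes. The median change over all genes was −0.01 on the log2 scale and the median size of a change was 0.46. Among the called genes, 1057 rose and 1306 fell by at least 2-fold, 253 and 260 by at least 4-fold, and 105 and 55 by at least 8-fold. Genes that rose at least 2-fold went from 4.14% ± 0.0181 of all scaled reads to 12.1% ± 0.15 (SD, n = 3 libraries each). Genes that fell at least 2-fold went from 10.3% ± 0.0663 to 3.42% ± 0.0991. Both sets were picked by their change in these same libraries, so the direction of each shift was fixed in advance. Scaled reads give shares of a library, and RNA per cell was not measured. Fewer cells of a type and less RNA per cell therefore cannot be told apart.

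**Figure D1:**
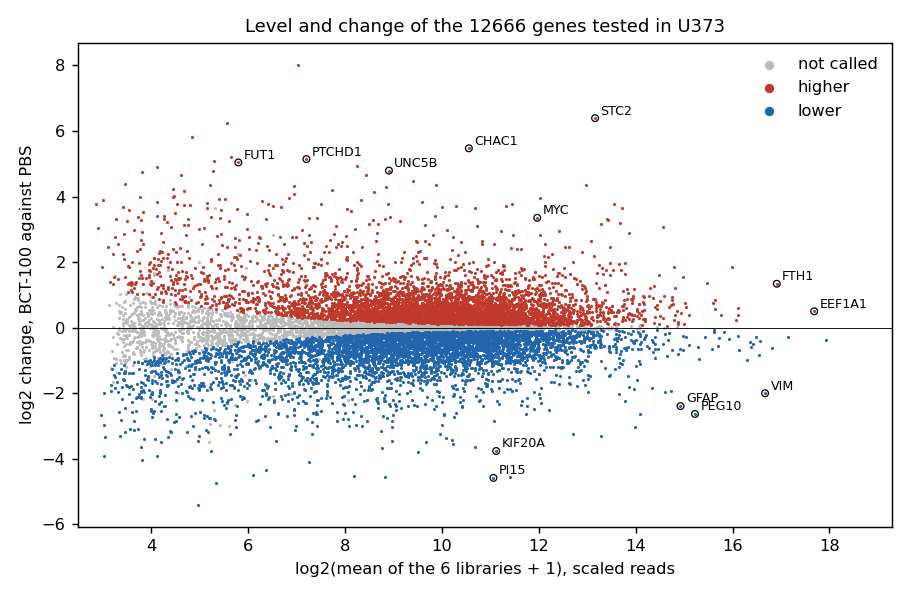
Level (log2 of the mean of 6 libraries plus 1, in scaled reads) against log2 change, BCT-100 against PBS, for the 12666 genes tested in U373. Each point is a gene, red where higher (4871), blue where lower (4906) and grey where not called; circles mark named genes, among them STC2 at 6.39 and PI15 at −4.58.

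The largest rise among genes with a mean of at least 100 in the higher group was in CCND2, which encodes cyclin D2, a partner of the kinases that start the cell cycle. It had 0, 0 and 0 reads in PBS and 240, 286 and 254 scaled reads with BCT-100. Against a floor of 3 reads over the PBS group it was at least 263-fold higher, a bound that covers counting error only. With 0 in PBS, CCND2 passed the filter through the BCT-100 libraries alone, so among tested genes it could only appear as a rise. STC2 (chromosome 5, 173314713 to 173329503, GRCh38, GENCODE v29), which encodes the secreted glycoprotein stanniocalcin-2, followed. It lay at 234, 208 and 205 in PBS and at 17307, 18850 and 18231 with BCT-100, an 83.7-fold change. CHAC1, whose product degrades glutathione, went from 66.3, 67.9 and 62.7 to 2928, 3068 and 2851 (log2 change 5.47, SE 0.08). Among the others with the largest rises were FUT1, a fucosyltransferase, at 5.04 (SE 0.38), BEX2, at 4.92 (SE 0.18), UNC5B, a netrin receptor, at 4.79 (SE 0.12), and HOXB9, a homeobox transcription factor, at 4.35 (SE 0.20). ESRP1, an epithelial splicing factor, was also listed at 0 in all PBS libraries and had 25.4, 19.9 and 14.9 scaled reads with BCT-100 (at least 20.4-fold higher). Like CCND2, it passed the filter through the BCT-100 libraries alone.

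Among the largest falls, PI15, a secreted peptidase inhibitor, lay at 4279, 4044 and 4026 in PBS and at 184, 162 and 168 with BCT-100 (−4.58, SE 0.06). PRSS35, a member of the serine protease family, went from 5068, 5073 and 5440 to 276, 185 and 208 (−4.55, SE 0.16), and GALNT5, which starts O-linked glycosylation, from 930, 830 and 842 to 41.3, 33.9 and 34.4 (−4.54, SE 0.12). The keratins KRT13 and KRT15 changed by −4.48 (SE 0.67) and −3.79 (SE 0.09), the calcineurin regulator RCAN2 by −4.10 (SE 0.43), the protocadherin PCDH20 by −3.65 (SE 0.08), and PSD4, an exchange factor for small GTPases, by −3.54 (SE 0.07). A second entry of the symbol CAPS changed by −4.51 (SE 0.52). The entry listed first under CAPS went from 18298, 18273 and 17674 to 2159, 1899 and 1519, and reads shared between entries of 1 symbol make both uncertain.

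Ranked by reads rather than by fold, the gains were led by FTH1, the ferritin heavy chain that stores iron, with 72947, 67224 and 69197 scaled reads in PBS and 170182, 180922 and 180019 with BCT-100. JAG1, a ligand of Notch receptors, rose from 5529, 4848 and 5241 to 41615, 43778 and 44316, a log2 change of 3.06 (SE 0.04). EEF1A1, which brings aminoacyl-tRNA to the ribosome, rose by only 0.50 but from a mean of 174804 ± 1675 to 246460 ± 7350. The losses were led by VIM, which fell from 171301, 163934 and 165376 to 40843, 41887 and 42608. PEG10, a retrotransposon-derived imprinted gene, fell from 68694, 62579 and 66682 to 10776, 10831 and 10299 (−2.63, SE 0.03). The cytoskeletal genes ACTB (−0.99, SE 0.03), ACTG1 (−0.61, SE 0.03) and ACTN4 (−1.93, SE 0.03) and the glycolytic enzyme PKM (−0.82, SE 0.03) were also among the 10 largest losses in reads. FTH1, EEF1A1, ACTB and ACTG1 have pseudogenes or near-identical copies, among which the authors' counting may have split reads.

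**Figure D2:**
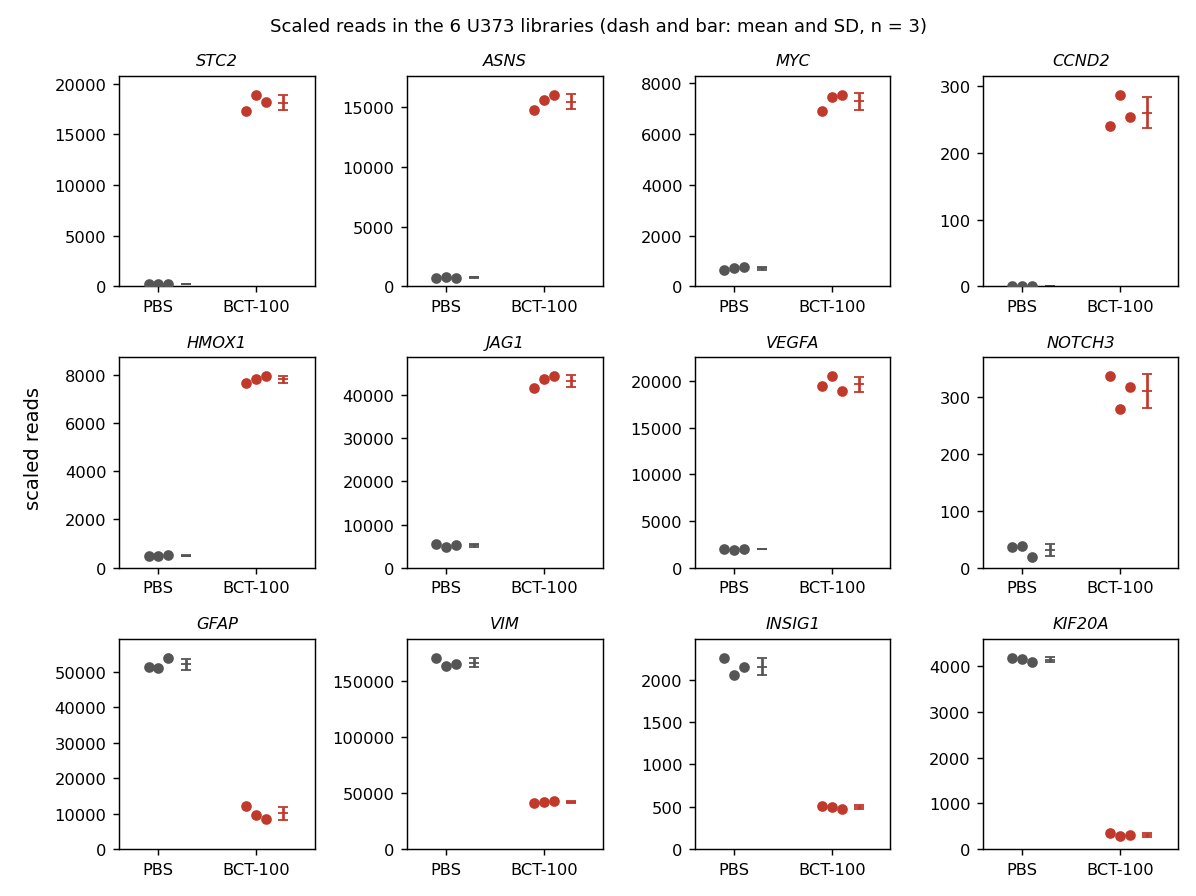
Scaled reads of 12 genes in each of the 6 U373 libraries; grey points are PBS, red points BCT-100, and dash and bar give the mean and SD (n = 3), with each axis starting at 0. In all 12 genes the groups are apart, upward for 8 genes and downward for GFAP, VIM, INSIG1 and KIF20A. The groups did not overlap in 9528 of the 9777 called genes.

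Genes of the integrated stress response were higher in nearly the whole list. Of 36 genes, 34 were tested, and 31 of them were higher and 3 lower, with a median change of 2.91 against −0.01 over all genes. The ones left untested, FGF21 and ADM2, had means of 0 with PBS and of 18 and 8.79 with BCT-100. ATF4 itself went from 1623, 1769 and 1782 to 7682, 8506 and 8435 (2.25, SE 0.04). ATF3, a stress-induced member of the same family, went from 212, 158 and 164 to 2163, 2441 and 2349 (3.71, SE 0.10), and ASNS, asparagine synthetase, from 731, 796 and 736 to 14780, 15551 and 15985 (4.35, SE 0.04). In all of these every BCT-100 library was above every PBS library. Groups that did not overlap, in either direction, were the rule, in 9528 of the 9777 called genes. CEBPB and CEBPG, which encode dimer partners of ATF4, rose by 1.38 and 1.23. The 3 lower genes were the transcription factor ATF5 (−0.75, SE 0.09), the cell cycle inhibitor CDKN1A (−0.58, SE 0.08) and the lipoprotein receptor VLDLR (−0.11, SE 0.04). Each of them was higher in U87, and the responses of the lines differed by −2.18 (SE 0.10, adjusted p = 7.29e-15) for ATF5, −1.26 (SE 0.08, adjusted p = 3.26e-12) for CDKN1A and −1.77 (SE 0.06, adjusted p = 1.14e-17) for VLDLR.

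Upstream of ATF4, no rise was called in the 4 eIF2 kinases over all 6 libraries. GCN2, listed as EIF2AK4, changed by −0.13 (SE 0.04), PERK (EIF2AK3) by −0.61 (SE 0.06) and the heme-regulated kinase EIF2AK1 by −0.56 (SE 0.04), all called lower, and PKR (EIF2AK2) stood at −0.00 (SE 0.14), not called. The phosphatase subunits that remove the phosphate from eIF2 rose: PPP1R15A, the stress-induced one, from 1026, 944 and 924 to 4658, 5308 and 5212 (2.39, SE 0.05), and PPP1R15B, the constitutive one, by 1.16. A repressor of the program, TRIB3, a pseudokinase that binds ATF4, rose as well, by 3.71 (SE 0.05). NUPR1, a stress-induced chromatin protein, rose by 3.42 (SE 0.08). In the list of eIF2 kinases and phosphatase subunits 7 of 16 genes were higher, 5 lower and 4 not called. Without PBS replicate 1, 9 were higher, 5 lower and 2 not called, and the value of PKR in that fit is not given here. All of these are mRNA levels, and eIF2 phosphorylation was not measured.

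To show what the responding promoters hold, the letters TGATGNAAN, the core of the C/EBP-ATF response element at which ATF4 binds with a C/EBP partner, were searched on both strands. The window ran from 250 bases before to 50 bases after each RefSeq gene start (GRCh38.p14), and 10366 of the 12666 tested genes had one. The letters were present in 1.66% of all these promoters. They were present in 10 of 76 promoters of genes that rose at least 8-fold (13.2%), in 16 of 187 for at least 4-fold (8.56%), and in 1 of 185 of genes that fell at least 4-fold (0.541%). Of the stress response list 6 of 30 promoters held them (20%), and of the cytosolic aminoacyl-tRNA synthetases 6 of 12 (50%). AARS is counted in both lists. A match is a description of the letters, not of binding. The matches of 6 genes are printed as examples, 5′ to 3′ on the strand of the gene. The matching letters, or their reverse complement, are in capitals. All 6 genes rose, as did the other matched genes of these lists, SLC3A2 (2.88), CARS (1.99), MARS (1.57), NARS (1.55) and TARS (1.68). AARS, the alanyl synthetase, changed by 1.98 (SE 0.03) and IARS, the isoleucyl one, by 1.65 (SE 0.03), and the others are described above or below.
ASNS, chr7:97872458-97872486, minus strand: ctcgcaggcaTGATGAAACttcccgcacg
CHAC1, chr15:40953251-40953279, plus strand: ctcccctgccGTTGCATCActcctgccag
ATF3, chr1:212565206-212565234, plus strand: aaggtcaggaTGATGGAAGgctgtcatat
HERPUD1, chr16:56931955-56931983, plus strand: gacgcggcggGTTGCATCAgcccgtgccc
AARS, chr16:70289676-70289704, minus strand: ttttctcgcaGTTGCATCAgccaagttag
IARS, chr9:92293693-92293721, minus strand: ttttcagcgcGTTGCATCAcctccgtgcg
The match began 68 bases before the start of ASNS, 210 before that of CHAC1, 191 before that of ATF3, 177 before that of HERPUD1, 188 before that of AARS and 14 before that of IARS. In GENCODE v29 the windows of ATF3 and HERPUD1 lay outside annotated genes. Those of CHAC1, ASNS and IARS lay in an annotated exon of the same gene, and that of AARS in an exon of the neighbouring gene DDX19B.

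Amino acid supply genes mostly rose. In the list for amino acid and folate-linked synthesis 18 of 25 tested genes rose, 5 fell and 2 missed the threshold (median 1.20). Proline synthesis from glutamate was split: PYCR1, the mitochondrial reductase, rose from 656, 626 and 625 to 3607, 3847 and 3639 (2.54, SE 0.05), while PYCRL, a cytosolic reductase, fell from 285, 315 and 312 to 89, 85.7 and 99.6 (−1.72, SE 0.12). CTH, which makes cysteine, rose by 4.47 (SE 0.11), and ALDH1L2, a mitochondrial folate enzyme, by 3.26 (SE 0.11). CBS stood at 3.37 (SE 0.47), but its locus has a near-identical copy in the genome build, so its reads are uncertain. For the transporters 14 of 21 rose, 5 fell and 2 missed the threshold (median 1.04), and without BCT-100 replicate 2 the falls numbered 3. SLC43A1, a transporter of large neutral amino acids, rose by 3.61 (SE 0.30), and SLC38A3, a glutamine transporter, fell from 406, 414 and 371 to 146, 97.6 and 99.6 (−1.81, SE 0.13), against 0.68 in U87 (difference −2.49, SE 0.62, adjusted p = 0.00133).

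In the list for arginine, the urea cycle and nitric oxide 5 of 13 tested genes rose, 7 fell and 1 missed the threshold (median −0.50). ASS1, argininosuccinate synthase, lay at 23.9, 25.7 and 26.4 in PBS and at 679, 688 and 629 with BCT-100 (4.66, SE 0.14). Even so its level stayed below that of U87, where the means were 2026 ± 58.9 with PBS and 4509 ± 104 with BCT-100, and the U373 response was larger by 3.51 (SE 0.09, adjusted p = 1.01e-19). ASL, the lyase of the following step, fell by 0.76. GATM and GAMT, the enzymes that make creatine from arginine and glycine, both fell: GATM went from 311, 276 and 290 to 35, 48.8 and 57.7 (−2.63, SE 0.16) and GAMT changed by −0.75 (SE 0.09). OAT, which turns ornithine into a proline precursor, fell by 0.77, and ARG2, the mitochondrial arginase, rose by 0.95. ARG1 and the urea cycle gene OTC were listed at 0 in every U373 library. In the polyamine list 11 of 18 rose, 4 fell and 3 missed the threshold (median 0.34). SMOX, spermine oxidase, rose by 1.17 (SE 0.06) and MTAP, which recovers methionine from the by-product of polyamine synthesis, by 1.08 (SE 0.04), while OAZ2, an antizyme that blocks ornithine decarboxylase, fell by 0.83.

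Genes of the translation machinery mostly rose in U373. For synthetases that charge tRNAs in the cytosol, 16 of 19 rose and 3 fell (median 1.55). Tyrosyl (YARS, 2.64, SE 0.04), glycyl (GARS, 2.19, SE 0.04) and tryptophanyl (WARS, 2.20, SE 0.04) synthetases rose most, and RARS, which charges the tRNA of arginine itself, rose from 2515, 2467 and 2632 to 3288, 3382 and 3408 (0.40, SE 0.04). The 3 lower were QARS (−1.79, SE 0.05), VARS (−0.67, SE 0.04) and HARS (−0.55, SE 0.04). The mitochondrial synthetases were divided, 9 of 17 higher, 6 lower and 2 not called (median 0.20).

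MYC and the genes for building ribosomes rose together. MYC, a transcription factor that drives growth genes, lay at 657, 726 and 774 in PBS and at 6920, 7454 and 7534 with BCT-100 (3.35, SE 0.05), against 0.96 in U87, a difference of 2.38 (SE 0.07, adjusted p = 1.4e-18). In the list of ribosome biogenesis and MYC 31 of 35 rose, 2 fell and 2 missed the threshold, with a median of 0.96. NOP58, a component of the particles that modify ribosomal RNA, rose from 1723, 1823 and 1881 to 6975, 7065 and 7542 (1.99, SE 0.04). RRN3, an initiation factor of RNA polymerase I, rose by 1.88 (SE 0.05), RRP12 by 1.76 (SE 0.04), DDX21, a nucleolar helicase, by 1.64 (SE 0.04), and the nucleolar proteins NPM1 and NCL by 1.20 and 0.95. The 2 lower genes were NHP2 (−0.16, SE 0.05) and BOP1 (−0.11, SE 0.05), and the call of BOP1 was lost in 4 of the fits that left out a library. The response of 34 of the 35 genes was called more positive in U373 than in U87, where the median was 0.20; more positive differences were called in 32% of all genes. The letters CACGTG, an E-box to which MYC can bind, stood in 8 of 29 promoters of this list (27.6%) and in 10% of all promoters searched.

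Cytosolic ribosomal protein mRNAs took 3.53% ± 0.0389 of the reads in PBS and 4.49% ± 0.101 with BCT-100 (SD, n = 3 each). The libraries did not overlap, and the exact two-sided permutation p was 0.1, the smallest that 3 against 3 allows. Of 76 genes 47 were higher, 16 lower and 13 not called (median 0.29). RPL26 changed by 1.22 (SE 0.03) and RPL9 by 1.18 (SE 0.03) toward the upper end, and RPL4 by −0.73 (SE 0.03) and RPL15 by −0.60 (SE 0.03) at the lower end. Pseudogenes of this family make single values uncertain. Among initiation and elongation factors 21 of 30 rose, 7 fell and 2 missed the threshold (median 0.38). EIF1, which guards start codon choice, rose from 12121, 12119 and 12325 to 41820, 44876 and 46337 (1.86, SE 0.03). The 2 genes for proteins that hold the cap-binding factor eIF4E in check moved apart, EIF4EBP1 by 2.55 (SE 0.05) and EIF4EBP2 by −1.11 (SE 0.04). In the list of amino acid sensing upstream of mTORC1 11 of 30 rose, 13 fell and 6 missed the threshold (median −0.05). These counts lie near the shares over all genes, 38.5% and 38.7%. The inhibitors SESN2 and DDIT4 rose by 3.67 (SE 0.07) and 2.95 (SE 0.04), and SESN3, a relative of SESN2 with a high level in this line, fell from 10144, 8476 and 9450 to 3826, 3034 and 3098 (−1.50, SE 0.13).

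**Figure D3:**
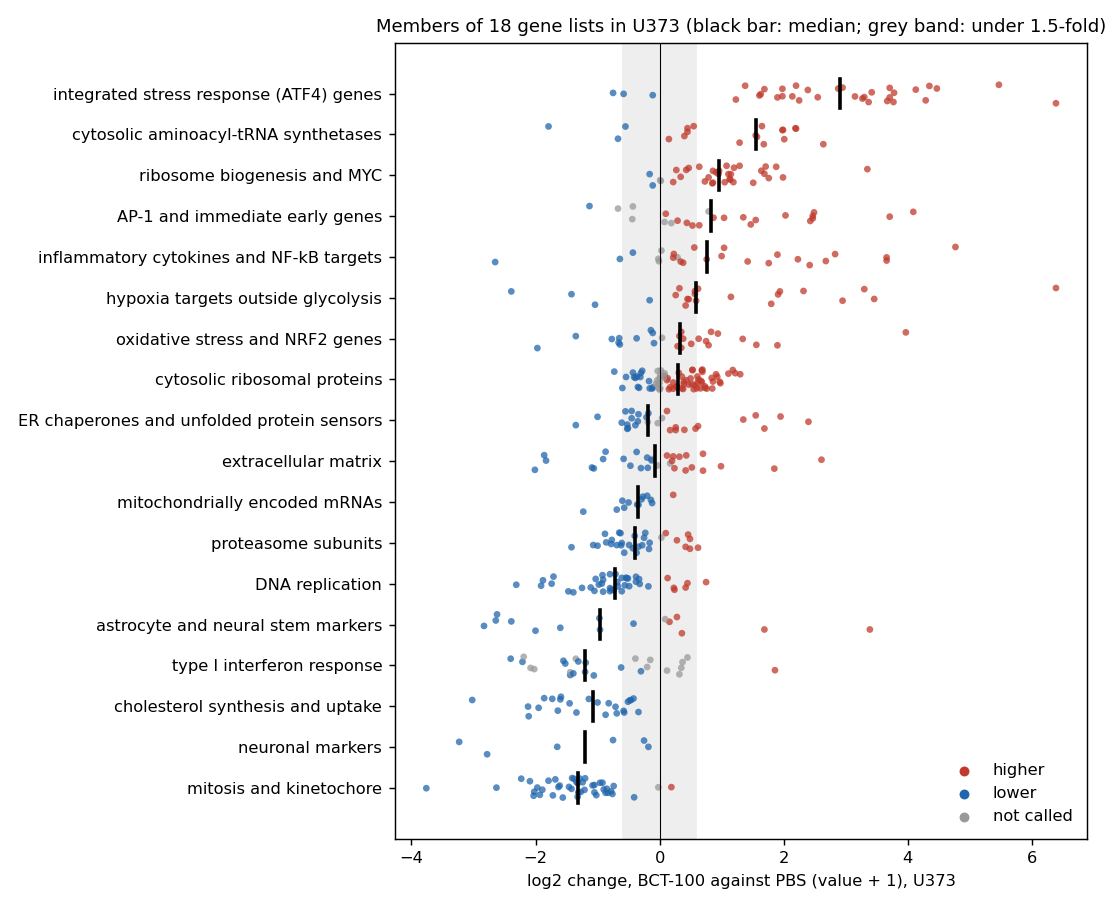
Log2 change of each tested member of 18 gene lists in U373, BCT-100 against PBS; points are genes, red higher, blue lower and grey not called, the black bar is the list median and the grey band marks changes under 1.5-fold. Medians run from 2.91 for the stress response list to −1.31 for mitosis, against −0.01 over all genes.

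Stress responses of other compartments were mixed. Of 29 genes for folding in the endoplasmic reticulum and its sensors 12 were higher, 14 lower and 3 not called (median −0.18). Over all genes 38.5% were higher and 38.7% lower. Among those that rose were XBP1, a transcription factor of the unfolded protein response, at 2.40 (SE 0.04), its activator ERN1 at 1.95 (SE 0.07), SEL1L at 1.55 (SE 0.04) and HERPUD1 at 1.69 (SE 0.04), and the chaperone HSPA5 (BiP) rose from 24797, 25896 and 25733 to 62392, 68517 and 64516. Among those that fell, the disulfide isomerase PDIA4 went from 17940, 18462 and 18074 to 9018, 9234 and 8908, and P4HB stood at −0.55 (SE 0.03), CALR at −0.45 (SE 0.03) and CRELD2 at −1.35 (SE 0.09). The cytosolic heat shock list counted 8 rises and 6 falls among 17 tested, with 3 past neither. CRYAB, a small heat shock protein of astrocytes, went from 41781, 36742 and 41095 to 12597, 9777 and 8467 (−1.97, SE 0.17), and HSPB1, another small heat shock protein, changed by −0.92 (SE 0.04), while HSPD1, the mitochondrial chaperonin, rose by 0.64.

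Oxidative stress genes counted 15 rises and 10 falls among 26 tested, with 1 past neither (median 0.34). HMOX1, which degrades heme, went from 471, 494 and 532 to 7668, 7843 and 7932 (3.97, SE 0.05), against 2.01 in U87, a difference of 1.96 (SE 0.05, adjusted p = 4.24e-19). TXNRD1, thioredoxin reductase, rose by 1.56 (SE 0.03), the ferritin light chain FTL by 0.75 (SE 0.03) and NFE2L2, which encodes NRF2, by 0.94 (SE 0.04). Among the falls were enzymes that remove superoxide and peroxide, with SOD1 at −1.35 (SE 0.04), PRDX1 at −0.65 (SE 0.03), PRDX2 at −0.77 (SE 0.04), GPX1 at −0.64 (SE 0.04) and catalase (CAT) at −1.97 (SE 0.06), which lay at 1474, 1592 and 1628 in PBS and 401, 396 and 399 with BCT-100. Of 4 tested metallothioneins, MT1X (1.01, SE 0.10) and MT1E (0.66, SE 0.08) were higher and MT2A (−0.58, SE 0.05) lower.

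Genes of mitosis fell. Of 44 genes 42 fell, 1 rose and 1 missed the threshold, the median being −1.31, and their summed share of all reads went from 0.989% ± 0.00912 to 0.354% ± 0.00613 (SD, n = 3 each). The proliferation marker MKI67 went from 31026, 30178 and 28636 to 4703, 4911 and 4881 (−2.63, SE 0.03), TOP2A, which untangles chromosomes, from 23713, 22801 and 23337 to 4745, 4981 and 5121 (−2.23, SE 0.03), and KIF20A, a kinesin of cytokinesis, from 4189, 4161 and 4098 to 349, 276 and 297 (−3.76, SE 0.07). The kinase PLK1 changed by −2.09 (SE 0.05), cyclin B1 (CCNB1) by −2.02 (SE 0.04) and CDK1 by −1.02 (SE 0.04). MAD2L1, a spindle checkpoint gene, was the higher one, from 1460, 1456 and 1461 to 1558, 1643 and 1785 (0.19, SE 0.05), and UBE2C, a ubiquitin-conjugating enzyme of mitotic exit, stood at −0.02 (SE 0.04), not called. In U87 the median was −2.45. The difference between the lines was called in the direction of the smaller U373 fall for 43 of the 44 genes. More positive differences were called in 32% of all genes. PLK1 differed by 2.39 (SE 0.08, adjusted p = 1.8e-17) and the survivin gene BIRC5 by 2.19 (SE 0.12, adjusted p = 2.9e-09).

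The letters TTTGAA, the core of the cell cycle genes homology region through which these genes are repressed outside division, were present in 27 of 37 promoters of the mitosis list (73%). They were present in 9.68% of the 10366 promoters and in 31 of 185 promoters of genes that fell at least 4-fold (16.8%). CCAAT boxes, often found beside this element, stood in 28 of the 37 (75.7%) and in 37.1% of all. Windows of 4 of these promoters are printed, with the match in capitals, as examples, chosen after the matches were seen for a place close to the gene start.
CCNB2, chr15:59105107-59105132, plus strand: cgacgcggtaTTTGAAtcctggaaca
PLK1, chr16:23678850-23678875, plus strand: cagcgccgcgTTTGAAttcggggagg
KIF4A, chrX:70290060-70290085, plus strand: ccgggacggaTTTGAAacttggcggt
NCAPG, chr4:17810934-17810959, plus strand: gcgggaattaTTTGAAcgttcgagcg
The matches began 29, 29, 34 and 35 bases before the RefSeq starts of CCNB2, PLK1, KIF4A and NCAPG. In GENCODE v29 the windows of CCNB2, PLK1 and NCAPG lay in an annotated exon of the same gene, and that of KIF4A lay inside the neighbouring gene PDZD11, outside its exons. These 4 genes changed by −0.90 (SE 0.04), −2.09 (SE 0.05), −1.32 (SE 0.04) and −1.79 (SE 0.05). MAD2L1, the mitosis gene called higher (0.19), also held the letters, at position 25 after its RefSeq start.

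DNA replication genes fell by less. Of 42 genes 36 were lower and 6 higher, with a median of −0.72, against −0.91 in U87. Of the 42 differences 15 were called more positive and 12 more negative. These counts lie near the shares over all genes, 32% and 26.9%. CDC45, a component of the replicative helicase, changed by −2.31 (SE 0.09), the ligase LIG1 by −1.91 (SE 0.07), MCM5 by −1.88 (SE 0.06) and the nucleotide reductase RRM2 by −1.71 (SE 0.05). ORC6, of the origin recognition complex, rose by 0.75 (SE 0.05).

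Among cyclins, their kinases and inhibitors cyclins D1 and D2 rose, and cyclin D3 and E2F1 fell. In the list 7 of 20 rose, 12 fell and 1 missed the threshold (median −0.45). CCND1, cyclin D1, rose from 4710, 4676 and 5115 to 14959, 15568 and 18859 (1.76, SE 0.11), next to the appearance of CCND2 above, CCND3 changed by −0.48 (SE 0.05), and CDK4 rose by 0.73. E2F1, a transcription factor of S phase, changed by −1.88 (SE 0.05), E2F8 by −1.67 (SE 0.09) and cyclin E2 (CCNE2) by −1.95 (SE 0.09). CDKN2A, CDKN2B and CDKN2C, inhibitors of CDK4 and CDK6, were listed at 0 in both groups. The growth arrest gene GADD45A rose by 2.64 (SE 0.09), and CDKN1A, an inhibitor of cyclin-dependent kinases, went from 471, 576 and 527 to 356, 359 and 335.

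The cell death list counted 13 rises and 7 falls among 25 tested, with 5 past neither (median 0.16). HRK, a pro-death member of the BCL2 family, had 0, 0 and 0 reads in PBS and 42.4, 55.8 and 68.9 scaled reads with BCT-100, at least 56.4-fold higher against 3 reads over the group. It passed the filter through the BCT-100 libraries alone and could only appear as a rise. TNFRSF10B, the death receptor for TRAIL, went from 1362, 1459 and 1369 to 4340, 4452 and 4461 (1.66, SE 0.04), and PMAIP1, a pro-death gene, rose by 1.36 (SE 0.05). The pro-death genes BID (1.32, SE 0.08) and BCL2L11 (1.12, SE 0.09) rose, as did the caspase inhibitor XIAP (0.63, SE 0.04). FAS, another death receptor, and CFLAR, an inhibitor of death receptor signalling, fell (−1.47, SE 0.08 and −0.82, SE 0.06), and MCL1, a survival gene, rose by 0.16.

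Every tested cholesterol gene fell. Each of the 24 tested genes of cholesterol synthesis and uptake was lower, with a median of −1.07. INSIG1, which holds the sterol sensor in the endoplasmic reticulum, went from 2265, 2063 and 2154 to 511, 502 and 476 (−2.12, SE 0.06), FDFT1, squalene synthase, changed by −1.73 (SE 0.05), and SREBF2, which encodes the activating transcription factor, by −0.69 (SE 0.04). In U87 the median was −0.48, and 18 of the 24 differences were called more negative in U373 and 3 more positive, where 26.9% of all genes were called more negative; INSIG1 differed by −2.18 (SE 0.07, adjusted p = 6.38e-18). Fatty acid genes did not fall as a block, with 4 of 16 higher, 8 lower and 4 not called: FADS2, a desaturase, changed by −2.04 (SE 0.06) and ELOVL5 by −1.02 (SE 0.03), FASN stood at 0.03 (SE 0.04), and ACSL4 and ACACA rose by 0.91 and 0.62.

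Among glycolytic genes 15 of 24 were lower and 7 higher (median −0.16). PFKL, a phosphofructokinase, changed by −1.85 (SE 0.05), HK1 by −1.06 (SE 0.04) and PKM by −0.82 (SE 0.03), while HK2, an inducible hexokinase, rose from 207, 241 and 237 to 937, 895 and 914. SLC2A1, the main glucose transporter, fell from 5384, 5632 and 5494 to 2964, 3239 and 2744 (−0.89, SE 0.05) and rose in U87 (1.63, difference −2.51, SE 0.07, adjusted p = 2.72e-19). SLC2A3, the neuronal glucose transporter, rose by 1.72 (SE 0.13). Hypoxia targets outside glycolysis had 18 of 22 higher and 4 lower (median 0.58). VEGFA, the angiogenic growth factor, went from 2021, 1946 and 2012 to 19488, 20492 and 18949 (3.30, SE 0.04), EPAS1, which encodes HIF-2 alpha, from 5405, 5230 and 5461 to 20154, 20902 and 20537 (1.94, SE 0.03), and CA12, a carbonic anhydrase, from 10.1, 11.7 and 7.27 to 105, 130 and 110 (3.46, SE 0.27). Against them STC1, stanniocalcin-1, fell from 3030, 3171 and 3131 to 626, 566 and 593 (−2.39, SE 0.05), EGLN3, an oxygen sensor, by 1.42 and CA9 by 1.04. VEGFA, STC2 and DDIT4 also belong to the stress response list.

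Respiratory chain genes of both genomes were mostly lower. The 13 mRNAs encoded by mitochondrial DNA made up 4.26, 4.3 and 4.36% of reads in PBS and 3.32, 3.35 and 3.46% with BCT-100 (means 4.31% ± 0.0476 and 3.38% ± 0.0708, SD, n = 3 each, exact two-sided permutation p = 0.1, the smallest possible). Of the 13, 12 were lower and MT-ND1 higher (0.22, SE 0.03), with MT-ND6, the gene on the light strand, lowest at −1.23 (SE 0.07). Of 44 nuclear genes 27 were lower, 8 higher and 9 not called (median −0.17), led by the ATP synthase gene ATP5A1 (−1.08, SE 0.03) and UQCRC1 of complex III (−0.93, SE 0.04). Mitochondrial ribosomal proteins were divided, with 32 of 69 higher, 22 lower and 15 not called (median 0.03). Of 31 proteasome subunits 23 were lower, 7 higher and 1 not called (median −0.40), with PSMD3 at −1.42 (SE 0.04), PSMA1 at −1.07 (SE 0.04) and PSMD14 at 0.62 (SE 0.04). Autophagy and lysosome genes counted 14 rises and 11 falls among 30 tested, with 5 past neither. MAP1LC3B, which coats autophagosomes, rose by 1.15 (SE 0.04), the receptor SQSTM1 by 0.96 (SE 0.03), and the protease CTSL changed by −1.22 (SE 0.04).

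Immediate early and AP-1 genes were mostly higher, 17 of 24, with 1 lower and 6 not called (median 0.83). KLF4, a zinc finger transcription factor, went from 11.1, 16.4 and 10.9 to 217, 275 and 202 (4.09, SE 0.22), KLF10 from 1973, 1961 and 1870 to 10194, 10590 and 11313 (2.47, SE 0.04), and the phosphatases of the MAP kinases DUSP1, DUSP4 and DUSP5 rose by 2.43, 2.47 and 2.03. EGR1 was the lower one (−1.13, SE 0.16), and FOS stood at −0.44 (SE 0.50), not called. JAG1 and NOTCH3, a ligand and a receptor of Notch signalling, both rose, NOTCH3 from 36.8, 37.4 and 18.2 to 336, 278 and 318 (3.36, SE 0.23).

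Inflammatory cytokines and NF-kB targets rose in part. Of 25 tested genes 18 rose, 3 fell and 4 missed the threshold, the median being 0.76. CXCL8, the neutrophil chemokine interleukin-8, went from 1858, 2013 and 1958 to 21719, 22308 and 30707 (3.66, SE 0.16), the pattern recognition molecule PTX3 from 258, 253 and 213 to 2852, 3058 and 3280 (3.66, SE 0.07), and IL11, a cytokine of the interleukin-6 family, from 204, 220 and 244 to 1458, 1758 and 1556 (2.83, SE 0.08). IL6 rose from 48.8, 41 and 60 to 134, 192 and 189 (1.76, SE 0.18), whereas in U87 its mean went from 216 ± 4.51 to 20424 ± 695, a difference of −4.80 (SE 0.19, adjusted p = 3.31e-11). CCL2, a monocyte chemokine, fell from 833, 768 and 1004 to 199, 103 and 126 (−2.65, SE 0.29) and rose in U87 (2.48). The feedback inhibitors NFKBIA (0.03, SE 0.07) and TNFAIP3 (−0.02, SE 0.10) were not called. In U87 the median was 2.61. Of the 25 differences 21 were called more negative in U373, against 26.9% of all genes. Another 2 were called more positive, among them IL11 by 1.54 (SE 0.10, adjusted p = 2.3e-12).

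Interferon-response genes other than IRF1 were lower or not called, and the size of the change rested on PBS replicate 1. The summed list was 22512 scaled reads in that library, 11520 and 11332 in the other PBS libraries, and 9788, 10622 and 10189 with BCT-100. IFIT1, an inhibitor of viral translation, lay at 1680, 447 and 418 in PBS and 110, 152 and 124 with BCT-100, IFI44L at 1030, 206 and 159 and 62.5, 86.7 and 64.2, and MX1, an antiviral GTPase, at 1432, 229 and 205 and 142, 183 and 154. Over all libraries 12 of 26 genes were lower, 1 higher and 13 not called (median −1.20). Without PBS replicate 1, 15 were lower, 5 higher and 6 not called (median −0.50). Leaving out a BCT-100 library instead lowered the count of lower genes to 6 without replicate 1, 6 without replicate 2 and 7 without replicate 3, and IFIT1 and IFI6 then lost their calls. Without PBS replicate 1, IFIT1 was at −1.75 (SE 0.14), in place of −2.40 (SE 0.65), and MX1 at −0.45 (SE 0.14), in place of −1.35 (SE 0.89). IFIT3 went from 0.37 (SE 0.51), not called, to 0.89 (SE 0.09), called higher. Genes that moved little with that library were STAT2, a transducer of interferon signals, at −1.06 (SE 0.08) and −0.94 (SE 0.07) without it, and IRF1, at 1.86 (SE 0.05) and 1.91 (SE 0.06). OAS1, OAS2 and IFI44L were called lower without it, at −1.29 (SE 0.30), −1.29 (SE 0.24) and −1.35 (SE 0.19), and not with it, and OASL was called with it (−1.20, SE 0.53) and not without it (−0.47, SE 0.54).

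**Figure D4:**
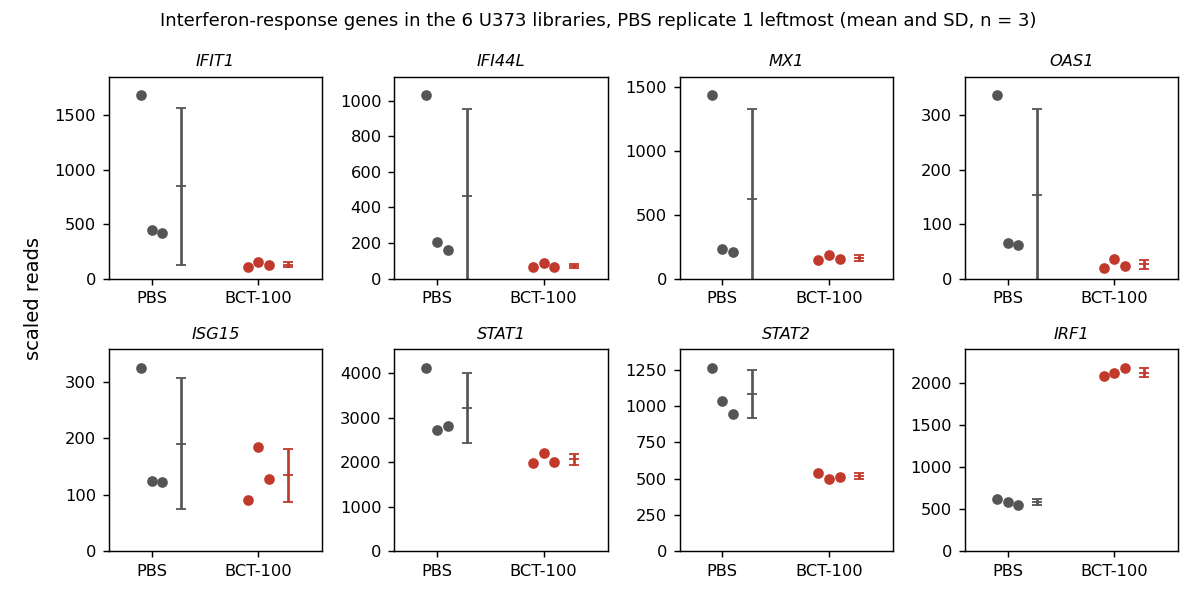
Scaled reads of 8 interferon-response genes in each U373 library, grey for PBS and red for BCT-100, with replicate 1 leftmost in each group; dash and bar give the mean and SD (n = 3). PBS replicate 1 is the highest PBS library in all 8 panels, and in IRF1, which rose to 2077, 2112 and 2179, the groups are far apart all the same.

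Antigen presentation genes were split in the same samples, with 6 of 17 higher, 9 lower and 2 not called (median −0.21). The shares over all genes were 38.5% higher and 38.7% lower. HLA-B and HLA-E rose by 0.59 and 0.75, and B2M, the shared light chain, fell from 24971, 25610 and 25986 to 17623, 17692 and 18377 (−0.51, SE 0.03), against 0.52 in U87 (difference −1.04, SE 0.04, adjusted p = 3.37e-16). HLA genes are near-identical in places, so their reads are uncertain.

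Extracellular matrix genes moved both ways, 13 of 30 higher, 14 lower and 3 not called. Such counts lie near the shares over all genes, 38.5% higher and 38.7% lower. SPARC, a matricellular glycoprotein, went from 31827, 33009 and 32844 to 9719, 8963 and 8755 (−1.83, SE 0.04), the collagen gene COL1A2 from 25577, 24082 and 25399 to 7257, 6817 and 6667 (−1.86, SE 0.04), and COL8A1 changed by −2.01 (SE 0.08). Biglycan (BGN) rose by 2.61 (SE 0.17) and COL4A2 by 0.70 (SE 0.05), the latter falling in U87 (−1.62). The integrin subunits ITGB4 and ITGB8 changed by −2.47 (SE 0.09) and −2.33 (SE 0.07), ITGA11, a collagen receptor subunit, rose from 118, 103 and 111 to 741, 694 and 637 (2.63, SE 0.10), and ITGA3 rose by 0.83. Of 15 integrin genes 5 were higher, 7 lower and 3 not called. Among metalloproteinases and their inhibitors 7 of 16 rose, 7 fell and 2 missed the threshold, with MMP14, a membrane-bound collagenase, at 1.48 (SE 0.04) against −0.26 in U87.

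Glial identity genes moved both ways, with more falls than rises. Of 15 tested astrocyte and neural stem markers 9 were lower, 5 higher and 1 not called (median −0.96). Over all genes 38.7% were lower and 38.5% higher. GFAP went from 51317, 51277 and 54054 to 12048, 9613 and 8461 (−2.39, SE 0.15), S100B, a calcium-binding protein of astrocytes, from a mean of 398 ± 37 to 55.1 ± 4.61 (−2.83, SE 0.13), FABP7, a fatty acid carrier of radial glia, from 1732, 1872 and 1815 to 329, 283 and 268 (−2.62, SE 0.07), and PDGFRA, a growth factor receptor of glial progenitors, from 5634, 5989 and 6022 to 1088, 878 and 879 (−2.64, SE 0.09). The stem cell factors SOX2 and NES changed by −1.60 (SE 0.04) and −0.97 (SE 0.03). Among the 5 that rose, MSI1 had the largest change, at low levels, from 2.76, 0 and 1.82 to 13.8, 24.9 and 30.7 (3.39, SE 0.61). NFIA, a gliogenic factor, rose from 52.5, 49.1 and 46.4 to 157, 167 and 160 (1.69, SE 0.17). EGFR, a growth factor receptor often amplified in glioblastoma, did not pass the test, at 0.09 (SE 0.04). In U87 GFAP, S100B and FABP7 had means of at most 3.58 scaled reads. The 6 tested neuronal markers were all lower (median −1.20), such as the neurofilament NEFL at −3.23 (SE 0.19) and GAP43 at −2.78 (SE 0.18). Of the other marker lists few genes could be tested: CD14 (1.77, SE 0.26) and CD68 (−1.54, SE 0.10) among leukocyte markers, KDR (0.16, SE 0.06), CDH5 (−1.80, SE 0.29) and VWF (−1.89, SE 0.45) among endothelial ones, and 5 epithelial ones, among which CLDN1 and OCLN rose by 2.57 and 1.04 and KRT8 fell by 0.94. The summed leukocyte list ranged from 445 to 502 scaled reads in PBS, most of it CD68, and its part in the other results was not tested.

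U373 and U87 shared most directions. Of the genes called in U373, 3017 were higher in both lines and 3130 lower in both, 678 were higher in U373 and lower in U87, and 614 the reverse. The difference between the responses was called in 58.9% of the 12666 genes, in 4056 as more positive in U373 (32%) and in 3410 as more negative (26.9%). U373 had its own controls, so the comparisons share no library. Genes that were more positive in U373 included NOTCH3 (4.41, SE 0.34, adjusted p = 1.02e-06), which fell in U87 (−1.06), CRMP1, a mediator of semaphorin signals (4.25, SE 0.37, adjusted p = 9.2e-10), and ST6GALNAC3, a sialyltransferase (4.47, SE 0.44, adjusted p = 5.44e-09). In U87 ST6GALNAC3 was low, with means of 6.34 with PBS and 2.27 with BCT-100. HS6ST2, a heparan sulfate sulfotransferase, went from 37.8, 32.8 and 50 to 600, 594 and 604 in U373. It was listed at 0 in every U87 library. Among the 60 genes that moved at least 2-fold in opposite directions, COL21A1, a minor collagen, fell from 921, 843 and 871 to 191, 186 and 151 in U373 and rose from a mean of 2.95 ± 0.231 to 74.2 ± 5 in U87, and GATM, CCL2, COL9A2, PTPRB and SLCO5A1 likewise fell in U373 and rose in U87.

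**Figure D5:**
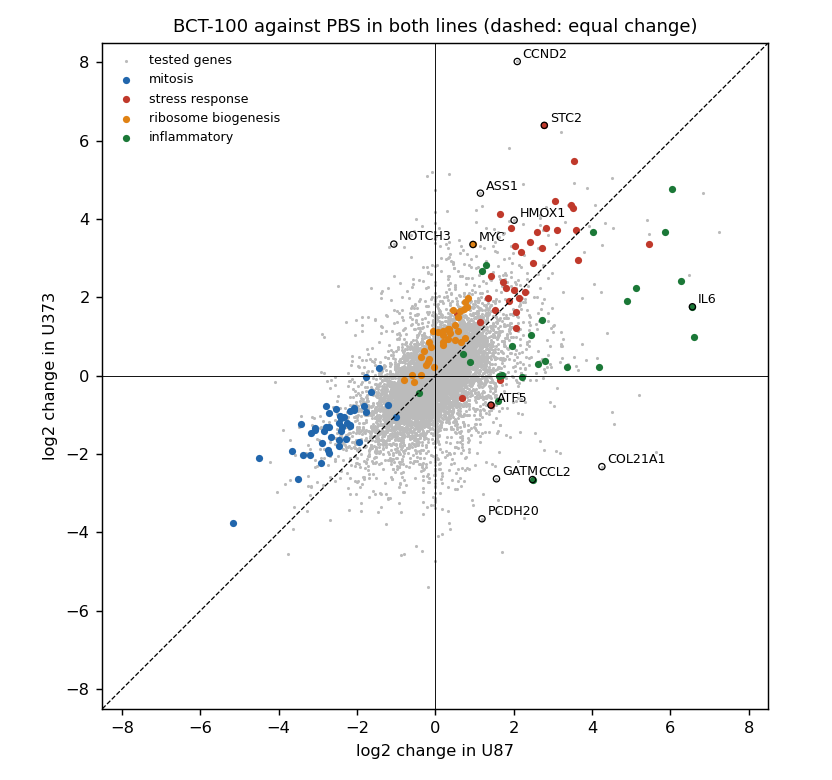
Log2 change in U373 against log2 change in U87, BCT-100 against PBS, for the 12666 genes tested; grey points are genes, colours mark 4 gene lists, open circles named genes, and the dashed line equal change. The mitosis list lies above the line (smaller fall in U373, medians −1.31 and −2.45) and the inflammatory list mostly below it (medians 0.76 and 2.61).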

How the data were processed

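RNA was sequenced from 12 libraries of 2 glioblastoma lines, U373 and U87, each with 3 libraries for PBS and 3 for 1 U/ml BCT-100. Reads were aligned with STAR and quantified with RSEM on hg38, per the submitters' processing notes; their versions are not given in the sources used here. The deposited values are a signal, not raw counts: the spacing of low values shows estimated reads divided by 1 factor per library, a step that the authors' labels do not describe, and 85.3 to 86.8% of values came out whole within 0.001. Of 19844 entries, 20 exact repeats were dropped. Genes that reached 10 in 3 or more U373 libraries were tested with limma 3.58.1 (R 4.3.3; trended, robust prior) on log2(value + 1), which understates changes of low genes. P-values were adjusted by Benjamini-Hochberg over all tested genes at 0.05, and changes over 1.5-fold used limma's treat test. The difference between the lines was the interaction term over 12 libraries. Promoters came from RefSeq (GRCh38.p14) and positions from GENCODE v29; tables and plots used Python 3.11.15. Replicates of a group differed beyond sampling noise (chi-square per gene 2.71 to 3.78).

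The members and the 42 gene lists were chosen with earlier results of these data known. Named genes were the 12 largest rises and falls with a mean of at least 100 and no overlap, up to 4 called members per list in its main direction and 2 against it, the 10 largest gains and losses in reads, the 10 largest differences between lines of each sign, the 6 largest opposite changes, up to 6 genes at 0 in a group, and a fixed panel. Other list members and single genes in the text were chosen after their values were seen. Alternatives changed the scaling, pseudocount, filter, prior, weights, block and libraries. Some genes are not reported here. Floors and bounds cover counting error only.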

Additional observations from a re-analysis of the deposited data

Results flagged for a closer look

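Responses that differed most between the lines are listed here because the test of the difference (limma interaction, 12 libraries) passed and its size was at least 4 on the log2 scale, U373 minus U87. This held for 20 of the 294 named genes. More positive in U373 were CCND2 (5.94), KIAA1644 (5.27), PTCHD1 (4.79), MIA-RAB4B (4.75), ST6GALNAC3 (4.47), NOTCH3 (4.41) and CRMP1 (4.25). More negative in U373 were COL21A1 (−6.57), the second entry of CAPS (−6.22), NRXN3 (−5.77), KCNN3 (−5.70), IL32 (−5.58), CCL2 (−5.12), PCDH20 (−4.84), IL6 (−4.80), COL9A2 (−4.69), CAPS (−4.27), GATM (−4.20), RCAN2 (−4.17) and KRT13 (−4.16). Some of these genes were near 0 in 1 line, which leaves little room to see a response there. In U87 the means with PBS and BCT-100 were 0 and 0.362 for PTCHD1, 0.326 and 0 for KRT13, and 2.17 and 5.79 for PCDH20. KIAA1644 had a PBS mean of 2.3 in U373 and 7006 in U87. Others were present in both lines, such as CCL2, with U87 means of 253 and 1413. Single outlying values in groups of 3 libraries were searched only by the 2-fold rule given above, in genes with a group mean of at least 100.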

How the results depend on the processing

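The 6 counts of calls stayed within 1.5 times their value under every alternative run: scaling, pseudocount, filter, prior, voom weights, all 12 libraries, block and left-out libraries. Genes higher ranged from 4638 to 5038 and genes lower from 4583 to 5089 over the alternatives, and with 1 library left out from 4692 to 4756 and from 4697 to 4802. The share of mitochondrially encoded mRNA changed by −1.003 points over nuclear genes only, since its denominator is then smaller, in place of −0.928, and by −0.900 to −0.968 with a library left out. Of 5132 values for 286 named genes, 33 lost the call, 1 gained it and 0 reversed; calls lost by leaving out 1 library were those of GATSL3, C3, IFIT1, IFI6 and BOP1. Between 95.4 and 95.8% of calls were kept with a library left out, and quantile normalisation reversed 1 call. Scalings moved the median change to between −0.03 and 0.01. Same-numbered libraries did not deviate together (correlations −0.091, −0.059 and −0.073). This cannot tell whether they were set up as pairs, because a pair need not leave a shared deviation. With the replicate block 4849 genes were higher and 4887 lower, 1522 and 1702 by over 1.5-fold. The difference between the lines was then called in 4021 and 3393. Genes listed at 0 in a group are limited by depth, and their fitted changes depend on the pseudocount.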
